A study of Mus musculus with 10 samples.

Results

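Potassium channel genes were followed across maturation, oxygen-induced retinopathy (OIR) and intravitreal injection in whole mouse retina. The members were the genes whose symbol in the probe annotation has the form Kcn, further letters and a number. Kcnj10, Kcnj8, Kcne3 and antisense transcripts were left out by the same definition. It gave 87 genes of the 30063 represented by a transcript cluster with a single gene symbol. Of these, 81 reached the level required for testing, among 23255 genes tested in all. Kcna10, Kcne4, Kcnj15, Kcnj16, Kcnj4 and Kcnu1 did not reach it, and no member had more than 1 such cluster. Kcnq1ot1 is the only long noncoding RNA among the members and is named after the channel gene it overlaps.

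Retina of C57BL/6JJmsSlc mice was compared in 5 groups of 2 arrays, each array giving a log2 level per gene. Untreated retina was taken at postnatal day 7 (P7Control) and at day 17 (P17Control). In the OIR groups, pups breathed 75% oxygen from day 7 for 5 days and were then returned to air, a procedure that prunes the growing retinal vessels and is followed by new vessel growth. Day 17 retina with OIR was uninjected (P17OIR), given phosphate-buffered saline in the vitreous (P17OIR+PBS), or given ISOX DUAL there, known as a bromodomain inhibitor (P17OIR+ISOX DUAL). Injections were given as the hyperoxia ended. Nothing in the labels ties the arrays to separate animals or to pools. P-values therefore reflect array-to-array spread only, and that spread may be technical.

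Potassium channels let potassium ions leave or enter cells along their gradient, and so set the resting potential and end electrical excitation. Voltage-gated channels are built from pore-forming subunits that open on depolarisation. Modifier subunits join them without making a conducting channel of their own, and auxiliary subunits change their gating or transport to the membrane. Calcium- and sodium-activated channels couple the current to ions inside the cell, inward rectifiers hold the membrane near rest, and the tandem-pore channels of the Kcnk family carry leak current. In the retina, potassium currents shape the light response of photoreceptors, the firing of ganglion and amacrine cells, and the removal of potassium by Muller glia and the pigment epithelium.

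Signals were similar across arrays. Median log2 levels of transcript clusters were 5.55 to 5.68, and the negative control probes had medians of 5.83 to 6.11. A gene whose lower group lay under that median on both arrays is given a log2 difference but no fold, since the size is then not exact. Among the 81 members this applied to 24 at day 7, 13 in untreated day 17 retina, 17 in uninjected OIR and 21 in each injected group, and 11 lay under it on both arrays of all 5 groups. The GC-rich background probes were dimmer on the first array of each uninjected group (6.02 to 6.34) than on the other 7 arrays (6.83 to 7.04), and a fit with that division as a block was added after the data were seen. Retinal markers were present, and the rod list (Gnat1, Pde6b, Nrl and Cnga1) averaged 10.92 to 11.15 on the day 17 arrays. Whole-tissue RNA cannot tell fewer cells of a type apart from less RNA per cell. In this text ± is the standard error of a difference from limma, and adjusted p-values are from limma with Benjamini-Hochberg adjustment over the 23255 genes, with a threshold of 0.05.

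Between day 7 and day 17, potassium channel transcripts rose far more often than they fell. Of the 81 tested members, 23 rose and 1, Kcnh8, fell, together 29.6% of the members, where 10.6% of all genes tested passed (5.26% higher and 5.29% lower). The median difference of the members was 0.249 log2 against 0.011 over all genes, and 65 of 81 were higher at day 17 (80.2%, against 52.0% of all genes). Values did not overlap between the days, higher at day 17, for 39 members (20.7% of all genes) and, lower, for 8 (19.7%). The count of members past the threshold was 3 in a fit of these 4 arrays alone (1.48% of all genes passed). It was 11 with array weights (4.78%) and 37 with the background division as a block (23.1%). That block added 10 higher (Kcna4, Kcnd1, Kcnd2, Kcng3, Kcnh1, Kcnip4, Kcnj6, Kcnk3, Kcnn2 and Kcnt1) and 3 lower members (Kcnd3, Kcne1l and Kcnk10), with adjusted p-values of 0.00168 to 0.0474. The count was 12 without the second day 7 array and 14 without the second untreated day 17 array, and 18 without the first array of either group. Leaving out 1 array at a time, 9 members kept their call each time and 15 lost it at least once. Over the same interval the rod list rose from 9.68 and 8.84 to 11.06 and 11.15 (3 of 4 genes passing), all 5 cone genes and 3 of 4 bipolar genes rose, and all 4 measured genes of the progenitor and cycling list fell. The part of these cell type changes in the channel differences was not tested.

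**Figure D1:**
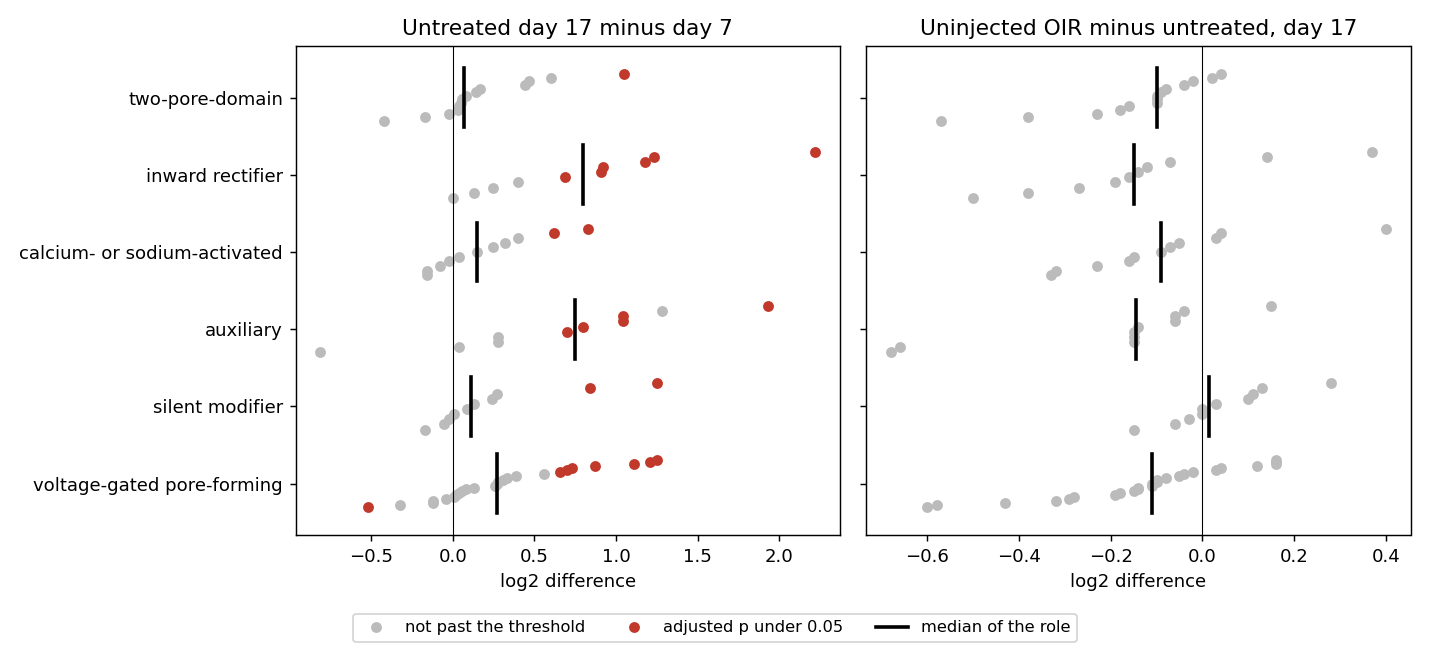
Log2 difference of each tested channel gene by role, for untreated day 17 minus day 7 (left) and uninjected OIR minus untreated at day 17 (right), with red points past an adjusted p of 0.05, black bars at the median of the role and Kcnq1ot1 left out. The inward rectifiers (6 of 10) and auxiliary subunits (5 of 10) hold the largest shares of raised genes, 1 of 14 Kcnk genes passed at left, and no point is red at right.

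Among voltage-gated pore-forming subunits, 7 of 25 rose and 1 fell, with a median difference of 0.274. Kcnh6, which encodes an ERG-type channel, was 7.37 and 7.24 on the day 7 arrays and 8.38 and 8.73 on those of day 17. That is a 2.38-fold rise (1.25 ± 0.13 log2, adjusted p = 0.0012). Kcnh5, an ether-a-go-go channel, went from 8.46 and 7.92 to 9.40 and 9.41, 2.32-fold (adjusted p = 0.00457). Of the 7 Shaker-type genes tested, whose channels open near rest and restrain firing along axons, 3 rose. Kcna1 went from 6.60 and 6.45 to 7.60 and 7.68, 2.16-fold (1.11 ± 0.12, adjusted p = 0.00144). Kcna3 rose 1.66-fold (adjusted p = 0.0097) and Kcna2 1.58-fold (adjusted p = 0.02). Kcna2 was lost without any single array of either group (adjusted p of 0.0618 to 0.0823).

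Of the 3 Shaw-type subunits tested, which repolarise fast-firing neurons, 2 rose. Kcnc2 was 6.69 and 6.49 at day 7 and 7.61 and 7.32 at day 17, 1.83-fold (0.87 ± 0.14, adjusted p = 0.00712), and Kcnc1 rose 1.62-fold (0.70 ± 0.10, adjusted p = 0.00512). Neither depended on a single array. Kcnc4 was at 6.65 and 6.94 and then 6.75 and 7.39, an overlap between the days. Kcnh8, an ELK-type subunit, fell from 6.01 and 6.00 to 5.43 and 5.53 (-0.52 ± 0.11, adjusted p = 0.0252). Its day 7 arrays were close to the negative control medians (5.995 and 6.053), with the second under its median, and both day 17 arrays lay under theirs. Its adjusted p was 0.051 to 0.111 without any single array of either group and 0.0608 without either ISOX DUAL array. The Kcnq genes, of the M-current family, and the Kcnd genes, which carry transient A-type current, had no member past the threshold. Kcnd1 differed by 0.39 log2 (adjusted p = 0.217, and 0.00527 with the background block), Kcnd2 by 0.56 (0.136, and 0.0439 with the block) and Kcnd3 by -0.32 (0.0967, and 0.0277 with the block). Kcnh1, an ether-a-go-go channel, differed by 0.26 log2 (adjusted p = 0.349).

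Of the 10 modifier subunits, 2 rose. Kcnv2 encodes a modifier subunit of photoreceptor inner segments, and its loss in people causes a cone dystrophy with supernormal rod responses. It was 8.81 and 8.75 at day 7 and 9.61 and 10.45 at day 17, with no overlap (2.39-fold, 1.25 ± 0.23, adjusted p = 0.0135). Without the second day 7 array its adjusted p was 0.068. Kcng4 rose from 5.98 and 5.99 to 6.57 and 7.08 (0.84 ± 0.17, adjusted p = 0.0204), with day 7 under the negative control median. It was lost without either day 7 array (adjusted p of 0.0712 and 0.0822) and without the second day 17 array (0.0528). The other 8 modifiers differed by -0.17 to 0.27 log2.

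Auxiliary subunits had 5 of 10 members raised and a median difference of 0.751. Kcne2, a single-span subunit that associates with several voltage-gated channels, had the smallest adjusted p of all members. It was 7.25 and 7.21 at day 7 and 9.23 and 9.10 at day 17, 3.82-fold (1.93 ± 0.16, adjusted p = 0.00057), and it stayed past the threshold without each array. Kcnip3, a neuronal calcium sensor of the KChIP family that also acts as a transcriptional repressor, was 8.61 and 8.29 and then 9.74 and 9.24, 2.06-fold (adjusted p = 0.0116, and 0.0664 without the second day 7 array). Of the 3 cytoplasmic beta subunits of Shaker-type channels, 2 rose, Kcnab2 by 2.06-fold (1.04 ± 0.12, adjusted p = 0.00229) and Kcnab1 by 1.74-fold (adjusted p = 0.0137, and 0.053 and 0.0606 without the second array of day 7 and of day 17). Kcnab3 differed by 0.28 log2 (adjusted p = 0.352). Kcnip2 rose 1.63-fold (adjusted p = 0.0466) but passed only with the full set or without the first day 17 array. Its adjusted p was 0.0664 to 0.164 without any other single array. Kcne1l stood just outside the threshold in the other direction, at 8.11 and 7.95 and then 7.01 and 7.43 (-0.81 ± 0.21, adjusted p = 0.0502, 0.0155 with the background block and 0.0279 to 0.226 in the other settings). Kcnip4, also of the KChIP family, was at 7.70 and 6.44 and then 8.88 and 7.81 (1.28 log2, adjusted p = 0.148), with the first array higher on both days. With the background block its adjusted p was 0.00168.

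Inward rectifiers had 6 of 10 tested members raised and the highest median difference of the roles, 0.804 log2, and none was lower. Kcnj13 encodes the channel of the apical membrane of the pigment epithelium. It was 5.57 and 5.25 at day 7, under the negative control median, and 8.21 and 7.06 at day 17 (2.22 ± 0.51, adjusted p = 0.0309). Its adjusted p was 0.152 without the first day 17 array, 0.0792 and 0.132 without the first and second day 7 array and 0.0575 without either PBS array. Rpe65, which defines the pigment epithelium, was 5.01 and 4.44 at day 7 and 7.71 and 6.57 at day 17. It had the higher value on the same array as Kcnj13 in each of the 5 groups. These are not 5 separate observations. First-minus-second array differences over all genes correlated at 0.583 to 0.809 among the uninjected groups and at 0.399 between the injected groups. The pigment epithelium list as a whole averaged 6.20 and 5.66 at day 7, 7.63 and 7.00 in untreated day 17 retina and 6.12 to 7.08 in the OIR groups, with Best1 under the negative control median on all 10 arrays. The amount of pigment epithelium in the samples and the level of Kcnj13 per cell cannot be told apart, and the part of the former was not tested.

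**Figure D2:**
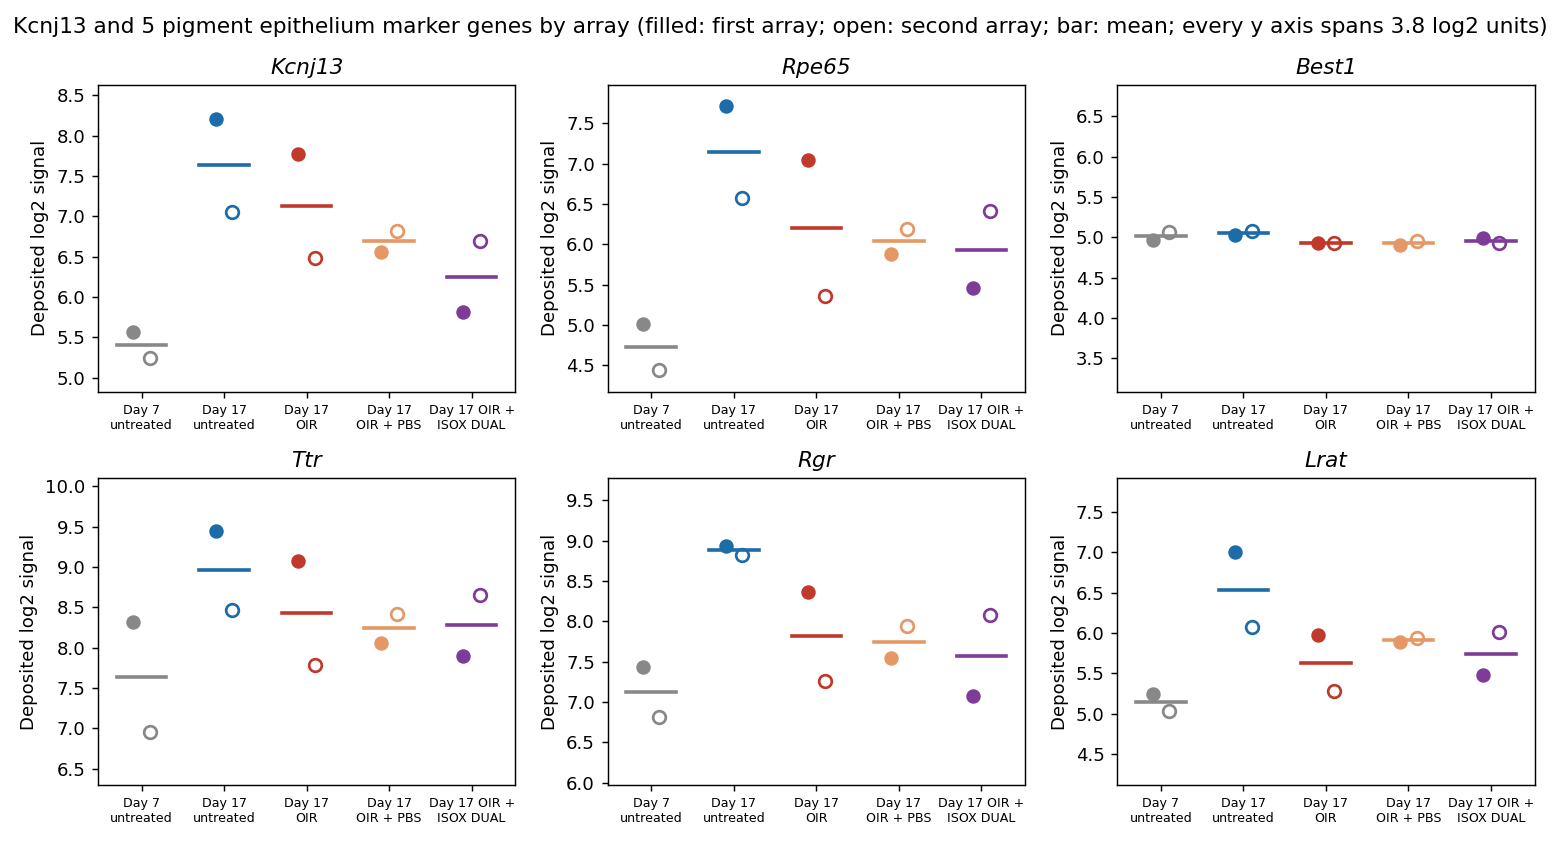
Log2 levels of Kcnj13 and of pigment epithelium markers on each array by group, with filled points for the first and open points for the second array of a group. Kcnj13 and Rpe65 are lowest at day 7 and highest on the first untreated day 17 array (8.21 and 7.71).

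Of the 4 G-protein-gated rectifiers, which slow neurons after receptor activation, 3 rose. Kcnj9 was 6.04 and 6.21 and then 6.79 and 7.81, 2.26-fold (1.18 ± 0.30, adjusted p = 0.0448). It passed only with the full set or without the first day 17 array, at 0.0571 to 0.15 without any other. Kcnj5 rose from 5.57 and 5.72 to 6.48 and 6.65 (0.92 ± 0.17, adjusted p = 0.0136, and 0.0603 and 0.0618 without the second day 17 and the first day 7 array), with day 7 under the negative control median. Kcnj3 rose 1.62-fold (adjusted p = 0.0152, and 0.0601 and 0.0761 without the second day 7 and the first day 17 array), and Kcnj6 differed by 0.40 log2 (adjusted p = 0.122). Of the classical strong rectifiers, Kcnj2 went from 4.89 and 4.51 to 5.73 and 6.13 (1.23 ± 0.17, adjusted p = 0.0041), with day 7 under the negative control median. Kcnj14, also a strong rectifier, rose 1.88-fold (0.91 ± 0.19, adjusted p = 0.0229), at 0.0852 without the second day 17 and 0.098 without the first day 7 array. Kcnj11, the pore of ATP-sensitive channels, differed by 0.13 log2 (adjusted p = 0.79).

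Calcium- and sodium-activated channels had 2 of 11 tested members raised. Kcnma1, the pore of the large-conductance BK channel, was 9.44 and 8.74 at day 7 and 9.92 and 9.91 at day 17, 1.77-fold (0.83 ± 0.20, adjusted p = 0.0369). Leaving out any single array other than those of day 7 ended its call (adjusted p of 0.0567 to 0.129). Kcnmb2, a BK beta subunit that inactivates the channel, rose from 5.69 and 5.39 to 6.13 and 6.19 (0.62 ± 0.12, adjusted p = 0.0153), with day 7 under the negative control median, and had adjusted p-values of 0.0534 to 0.0592 without either day 17 array or the second day 7 array. The small-conductance genes Kcnn1 to Kcnn4 ranged from -0.16 to 0.40 log2 and none passed.

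Leak channels of the Kcnk family had 1 of 14 members raised and a median difference of 0.067. That member was Kcnk9, an acid-sensitive leak channel, at 7.05 and 7.06 and then 7.75 and 8.47, 2.08-fold (1.05 ± 0.23, adjusted p = 0.026). It was lost without either day 7 array (0.0858 and 0.0998), the second day 17 array (0.0627) or either PBS array (0.0507). Its close relative Kcnk3 was at 7.15 and 7.27 and then 7.52 and 7.83 (0.47 log2, adjusted p = 0.0955). Kcnk1 was at 8.07 and 7.94 and then 8.47 and 8.74 (0.60 log2, adjusted p = 0.0989), and Kcnk10 differed by -0.42 (adjusted p = 0.0692, 0.0204 with the background block and 0.0258 to 0.313 in the other settings). The mechanosensitive Kcnk2 differed by -0.17 log2 (adjusted p = 0.462). Kcnq1ot1, the noncoding member, was 7.75 and 7.39 and then 8.03 and 7.28, an overlap (0.09 log2, adjusted p = 0.888).

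**Figure D3:**
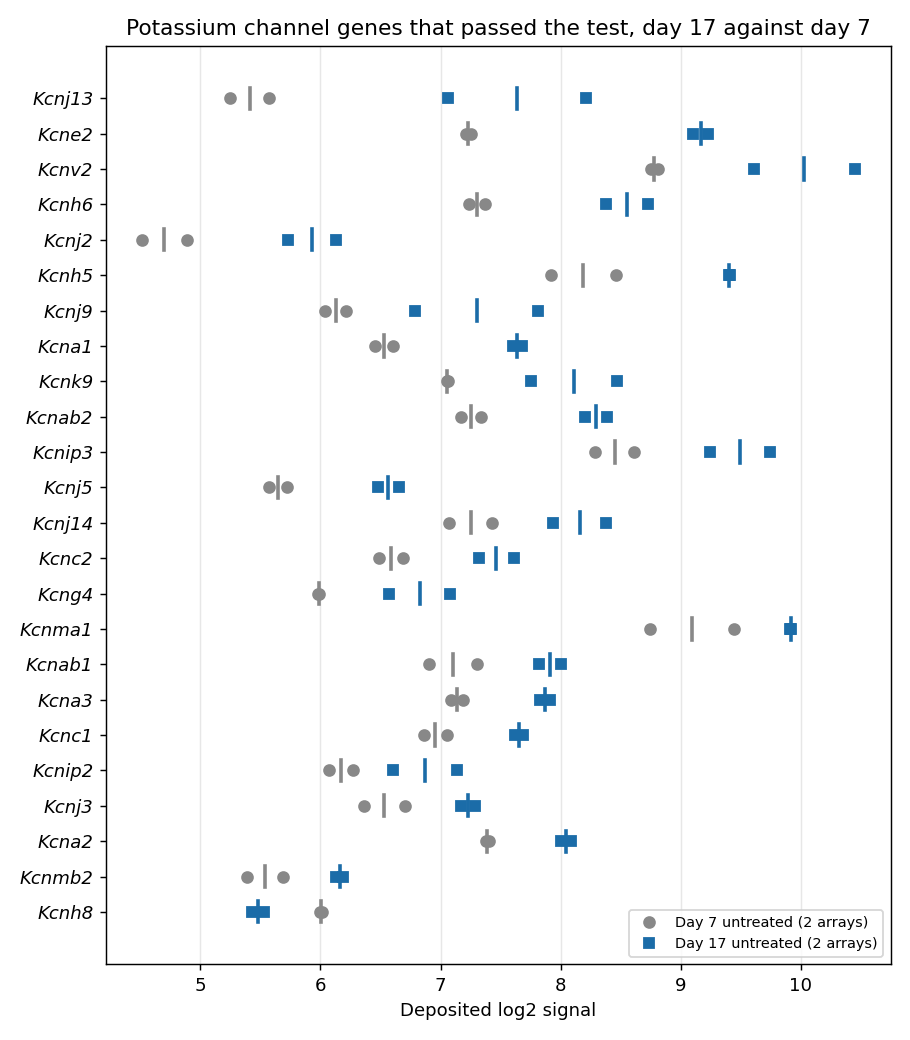
Log2 levels on each of the 4 untreated arrays, with a bar at each group's mean, for the members past the threshold between day 7 and day 17. The 23 raised genes have both day 17 points above both day 7 points, and Kcnh8 has both below.

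Promoters of the raised members differed in the sequence cores they hold. RefSeq (GRCm38.p6) windows from 250 bases before to 50 after a transcript start were matched for 66 of the 87 members, in 90 windows. TAATCC, the core bound by photoreceptor homeodomain factors, was searched on both strands and stood in 2 of the 90 windows (2.22%, against 7.06% of 32851 windows of all genes). Both windows, of Kcng4 and Kcnj9, belong to raised members, of which 19 had a window, with 29 windows in all. The share among raised members was 6.9% by window, against 7.06% of all windows. By gene it was 10.5%, against 8.14% of all genes. ACGTG, the core of the hypoxia response element, stood in 16 of 90 windows (17.8%, against 19.6%) or, by gene, in 14 of 66 members (21.2%, against 21.8% of all genes). Of the 19 raised genes 6 held it, Kcnab1, Kcnab2, Kcne2, Kcnh6, Kcnj13 and Kcnj2 (31.6%, against 21.8% of all genes). By window it stood in 8 of the 29 (27.6%, against 19.6%). The differences between these shares were not tested. The cores share no position in these windows. Shown are the windows of both TAATCC holders and of the members with the smallest adjusted p and the largest rise, 5′ to 3′ on the strand of the gene, with a matched core in capitals on either strand. Kcne2 is at chr16:92292139-92292438 on the plus strand (the first of its 2 windows), and the others are on the minus strand, Kcnj13 at chr1:87394680-87394979, Kcng4 at chr8:119635631-119635930 and Kcnj9 at chr1:172329273-172329572.
Kcne2: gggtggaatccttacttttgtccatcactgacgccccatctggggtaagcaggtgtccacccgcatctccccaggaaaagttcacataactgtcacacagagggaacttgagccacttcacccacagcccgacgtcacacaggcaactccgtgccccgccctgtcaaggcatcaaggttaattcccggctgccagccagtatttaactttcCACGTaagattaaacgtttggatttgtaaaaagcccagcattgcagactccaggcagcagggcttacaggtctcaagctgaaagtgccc
Kcnj13: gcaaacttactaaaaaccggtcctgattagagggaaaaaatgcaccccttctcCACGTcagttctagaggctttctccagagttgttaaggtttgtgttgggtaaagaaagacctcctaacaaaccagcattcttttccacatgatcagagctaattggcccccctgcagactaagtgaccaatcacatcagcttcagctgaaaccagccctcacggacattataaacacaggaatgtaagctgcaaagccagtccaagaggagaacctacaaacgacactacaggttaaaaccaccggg
Kcng4: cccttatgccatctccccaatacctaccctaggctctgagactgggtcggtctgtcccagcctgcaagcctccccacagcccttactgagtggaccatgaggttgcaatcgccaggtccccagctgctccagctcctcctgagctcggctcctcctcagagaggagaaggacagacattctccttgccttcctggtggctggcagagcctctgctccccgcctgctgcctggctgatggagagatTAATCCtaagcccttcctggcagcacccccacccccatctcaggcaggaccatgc
Kcnj9: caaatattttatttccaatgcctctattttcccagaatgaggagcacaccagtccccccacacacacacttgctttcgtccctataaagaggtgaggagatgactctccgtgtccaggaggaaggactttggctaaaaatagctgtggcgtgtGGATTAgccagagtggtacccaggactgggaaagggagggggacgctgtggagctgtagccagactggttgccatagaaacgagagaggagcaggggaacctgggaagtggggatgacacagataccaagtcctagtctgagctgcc
A match describes letters in the window and was not tested as a binding site.

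Some members lie next to each other on a chromosome, with no other protein-coding gene between them. RefSeq gives 9 such adjacent pairs. Kcna3 and Kcna2 are neighbours and both rose, and Kcna10, on the far side of Kcna2, was not tested. Kcna1 rose between Kcna5 (0.13 log2, adjusted p = 0.884) and Kcna6 (0.31, adjusted p = 0.12). Kcnj5 rose and its neighbour Kcnj1 differed by 0.00 log2 (adjusted p = 0.99). Kcnj1 lay under the negative control median on every array, so a change in it could not be seen.

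Genes that work with the channels were followed in a second list of pumps, exchangers, cotransporters, pacemaker channels and accessory proteins, with the channel genes Kcnj10, Kcnj8 and Kcne3 that the definition left out. Of 28 listed, 23 were tested, and between day 7 and day 17, 9 rose and 0 fell (5.26% and 5.29% of all genes), with a median difference of 0.39 log2. Slc24a1, the potassium-dependent sodium-calcium exchanger of rods, rose 26.8-fold (4.75 ± 0.20, adjusted p = 3.41e-05), and Slc24a2, that of cones, 2.28-fold (adjusted p = 0.0014). Slc12a5, the chloride-extruding cotransporter of mature neurons, rose 2.60-fold (adjusted p = 0.0142), and Atp1b1, a sodium pump beta subunit, 2.45-fold (adjusted p = 0.00419). Kcnj10, the main rectifier of Muller glia, rose 2.10-fold (adjusted p = 0.00192). The pacemaker genes Hcn2, Hcn3 and Hcn4 differed by 0.49, 0.06 and -0.03 log2 and did not pass. None of the 23 passed in uninjected OIR against untreated day 17 retina, or after either injection. Nearest to the threshold with limma in uninjected OIR were Kcnj10, lower (-0.75 ± 0.12, adjusted p = 0.056), and Abcc9, higher (0.63 ± 0.12, adjusted p = 0.0889). Kcnj10 was 7.61 and 7.61 untreated and 6.90 and 6.81 in uninjected OIR. Abcc9 was 7.03 and 7.08 and then 7.63 and 7.76.

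In uninjected OIR no potassium channel gene passed against untreated day 17 retina, and the values leaned downward. With limma, 0 of 81 members passed (0.495% of all genes did, 0.456% higher and 0.0387% lower), and 8 had an unadjusted p under 0.05 (6.1% of all genes). The median difference of the members was -0.096 log2, against -0.035 over all genes, and 20 of 81 were positive (24.7%, against 40.0% of all genes). Values did not overlap between the groups, lower in OIR, for 24 members (19% of all genes) and, higher, for 3 (9.44%). With the background division as a block, 3 members passed, Kcnc2 and Kcnip3 lower and Kcnmb1 higher, where 1.58% of all genes did. In no other setting did any member pass.

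Kcnc2 was 7.61 and 7.32 in untreated retina and 6.98 and 6.74 in uninjected OIR, with no overlap (-0.60 ± 0.14, adjusted p = 0.207, 0.0151 with the block and 0.106 to 1 in the other settings). On the PBS arrays it was 6.62 and 6.72, and on the ISOX DUAL arrays 6.68 and 6.54, beside 6.69 and 6.49 at day 7. Kcnip3 was 9.74 and 9.24 untreated and 8.92 and 8.70 in OIR (-0.68 ± 0.19, adjusted p = 0.352, 0.0232 with the block and 0.128 to 1 in the other settings), and 8.63 to 8.79 on the injected arrays. Kcnh7, an ERG-type channel, was 7.90 and 7.51 untreated, 7.11 and 7.14 in OIR (-0.58 ± 0.14, adjusted p = 0.259), and 6.87 to 7.15 after injection. Its day 7 values, 7.78 and 7.63, lay within the untreated day 17 range. Kcnk1, a leak channel, was 8.47 and 8.74 untreated and 8.21 and 7.87 in OIR (-0.57 ± 0.19, adjusted p = 0.591). Kcnb2, a delayed rectifier subunit, differed by -0.32 log2, Kcnj3 by -0.38 and Kcnmb2 by -0.33. Kcnd2 was 7.90 and 7.70 untreated and 7.44 and 7.28 in OIR (-0.43, adjusted p = 0.885).

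Kcnmb1, the BK beta subunit of vascular smooth muscle, was the member with the smallest p in OIR. It was 5.93 and 5.86 untreated and 6.34 and 6.25 in OIR, with no overlap (0.40 ± 0.08, adjusted p = 0.15, 0.0341 with the block and 0.0993 to 1 in the other settings). The PBS arrays were at 5.96 and 5.91, the ISOX DUAL arrays at 5.99 and 5.97 and the day 7 arrays at 5.95 and 5.89, so the uninjected OIR arrays stood above the other 8. The PBS, ISOX DUAL and day 7 arrays lay under the negative control median. The untreated day 17 arrays were just above it, with medians of 5.834 and 5.841 there. The pericyte and smooth muscle list (Pdgfrb, Rgs5 and Acta2) averaged 7.85 and 7.69 untreated, 9.09 and 8.65 in uninjected OIR, 8.51 and 8.07 with PBS and 8.13 and 8.02 with ISOX DUAL. Its gene Acta2 was 6.85 and 6.43 untreated and 9.05 and 7.75 in OIR. The part of these cells in the Kcnmb1 values was not tested. Kcnip1, next to Kcnmb1 on the chromosome, differed by -0.15 log2.

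**Figure D4:**
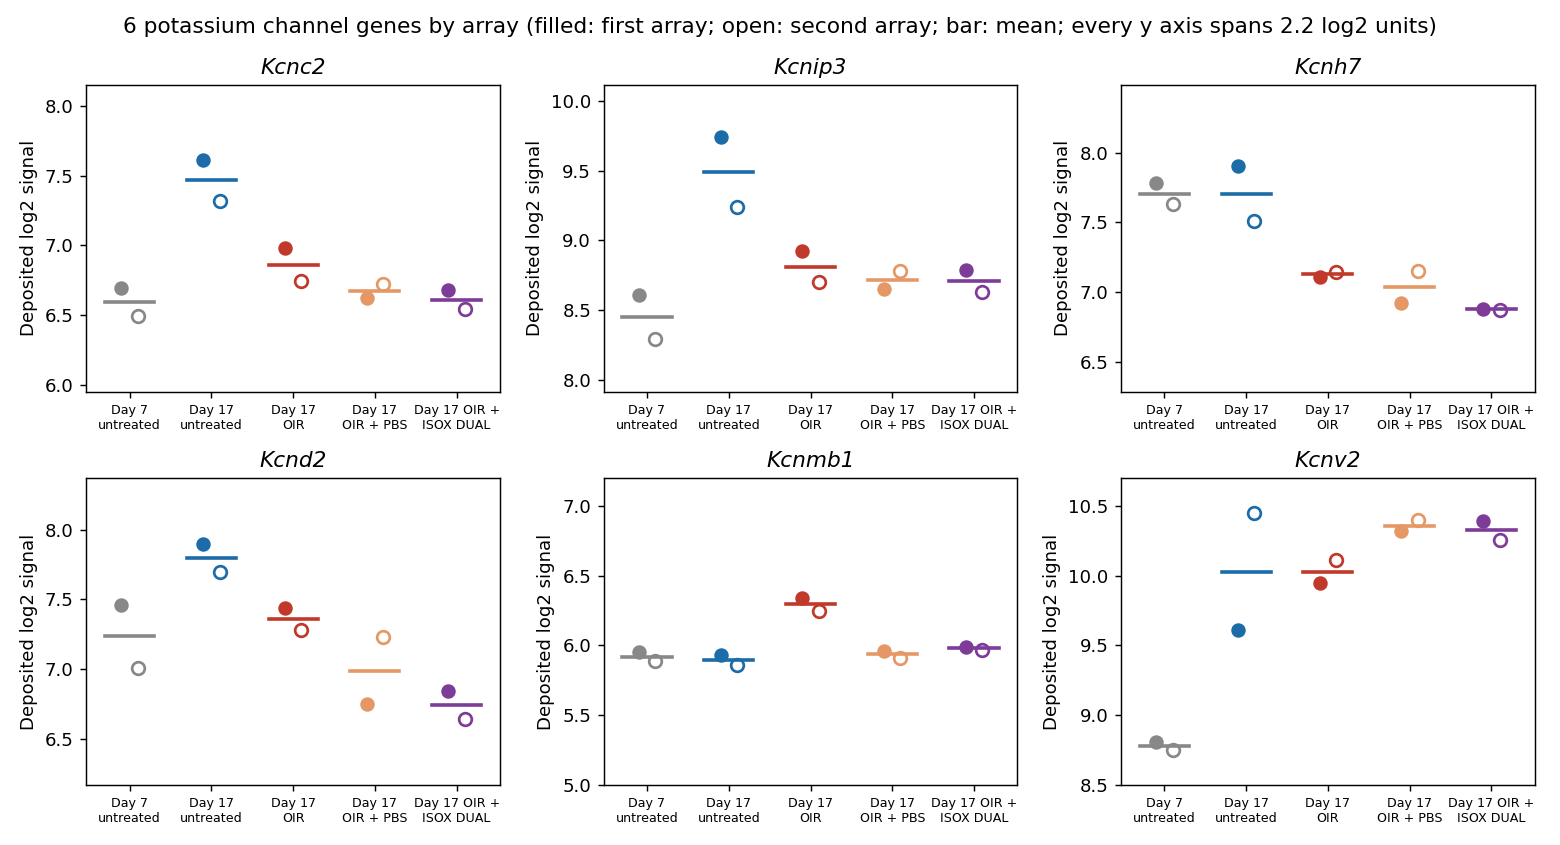
Log2 levels on all 10 arrays for Kcnc2, Kcnip3, Kcnh7, Kcnd2, Kcnmb1 and Kcnv2, with filled points for the first and open points for the second array of each group. Kcnc2, Kcnip3, Kcnh7 and Kcnd2 are lower on all 6 OIR arrays than on both untreated day 17 arrays, Kcnmb1 is highest in uninjected OIR, and Kcnv2 is 9.61 to 10.45 in every day 17 group.

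Among the genes raised up to day 17, differences in uninjected OIR ran from -0.68 to 0.37 log2. Kcnv2 was 9.61 and 10.45 untreated and 9.95 and 10.11 in OIR (-0.00 log2, 95% interval -0.54 to 0.53). Kcne2 was 9.23 and 9.10 and then 9.38 and 8.86 (-0.04, -0.42 to 0.33). Kcnh6 and Kcnh5 each differed by -0.11 log2. Larger negative values with no overlap included those of Kcnip3 (-0.68), Kcnc2 (-0.60), Kcnj3 (-0.38), Kcnmb2 (-0.33), Kcnma1 (-0.32), Kcna3 (-0.29) and Kcna2 (-0.28). Kcnj13 (-0.50), Kcnk9 (-0.38) and Kcnj9 (-0.27) differed with overlapping arrays. None of these genes passed. These comparisons share the untreated day 17 arrays with the comparison of day 17 and day 7. Kcnj2 (0.37) and Kcng4 (0.28) were among the few with positive differences, and neither passed.

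**Figure D5:**
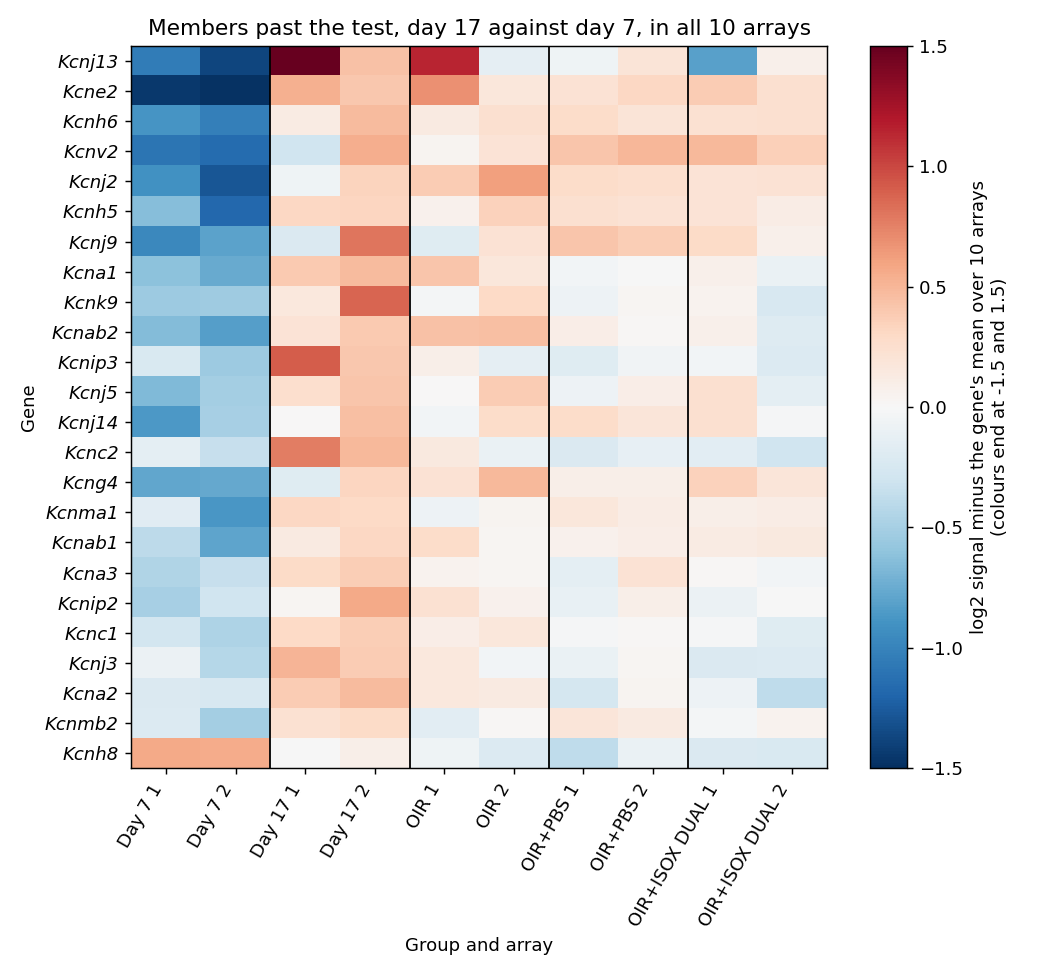
Log2 level of the 24 members past the threshold between day 7 and day 17, on each of the 10 arrays, relative to the gene's mean over the arrays, with genes ordered by that difference. Colours end at 1.5 log2 either way, and the 23 raised members are low on both day 7 arrays.

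All 6 OIR arrays, injected or not, were lower than both untreated day 17 arrays for 23 of the 81 members (28.4%, against 9.63% of all genes), a description chosen after the values were seen. No member was higher on all 6 (4.85% of all genes were). The 23 include 10 of 25 voltage-gated pore-forming subunits (Kcna2, Kcna3, Kcnb2, Kcnc1, Kcnc2, Kcnd2, Kcnh4, Kcnh7, Kcnh8 and Kcnq3) and 6 of 11 calcium- or sodium-activated genes (Kcnma1, Kcnmb2, Kcnmb4, Kcnn2, Kcnn3 and Kcnn4). Of the rest, 3 are inward rectifiers (Kcnj12, Kcnj3 and Kcnj6), 2 are leak channels (Kcnk1 and Kcnk18), 1 is an auxiliary subunit (Kcnip3) and 1 a modifier (Kcnv1). In untreated day 17 retina, 5 of the 23 lay under the negative control median on both arrays. The ganglion cell list (Rbpms, Pou4f1, Thy1, Sncg and Nefl) averaged 8.77 and 8.63 in untreated day 17 retina, 8.68 and 8.08 in uninjected OIR, 7.41 and 8.24 with PBS and 7.65 and 7.23 with ISOX DUAL. The amacrine list averaged 8.46 and 8.72 untreated and 8.32 to 8.46 on the OIR arrays. Their part in the channel values was not tested.

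The injected groups were each set against untreated day 17 retina in comparisons added after the data were seen. No member passed in either with limma (0 of all genes with PBS, 0.0172% with ISOX DUAL, 0.0086% in each direction), and 17 had an unadjusted p under 0.05 in each (9.14% of all genes for PBS, 8.46% for ISOX DUAL). Values did not overlap, lower with PBS, for 44 members (28.7% of all genes) and, higher, for 4 (19.7%). With ISOX DUAL the counts were 43 (27.6%) and 3 (20.6%). Kcnc2 differed by -0.79 ± 0.14 with PBS (adjusted p = 0.45) and by -0.85 ± 0.14 with ISOX DUAL (adjusted p = 0.185). Kcnh7 differed by -0.67 and -0.83 log2, and Kcnd2 by -0.81 and -1.06. The largest differences in both were those of Kcnip4 (-1.02 and -1.11) and Kcnj13 (-0.94 and -1.37), with no overlap.

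Injection of PBS into OIR eyes was followed by no channel gene past the threshold against uninjected OIR (0 of 81 with limma, and 0 of all genes). An unadjusted p under 0.05 was found for 3 members (4.29% of all genes). Values did not overlap, lower with PBS, for 19 members (15.3% of all genes) and, higher, for 6 (20.9%). Those of smallest p were Kcnmb1 (-0.37 ± 0.08, adjusted p = 0.519), Kcnab2 (-0.39 ± 0.12, adjusted p = 0.966) and Kcna1 (-0.32 ± 0.12). For Kcnmb1 the PBS arrays lay under the negative control median. Kcnab2 was 8.43 and 8.44 uninjected and 8.09 and 8.01 with PBS, with no overlap, and Kcna1 was 7.63 and 7.38 and then 7.17 and 7.20. Both injected groups lie among the arrays of brighter GC-rich background, whereas 1 of the 2 uninjected OIR arrays does not.

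ISOX DUAL against uninjected OIR gave 0 of 81 members with limma (0.0043% of all genes). At an unadjusted p under 0.05 there were 6 (4.29% of all genes). Values did not overlap, higher with the inhibitor, for 3 members (25.7% of all genes) and, lower, for 25 (15.4%). Kcnab2 was 8.07 and 7.80 with the inhibitor (-0.51 ± 0.12, adjusted p = 0.656), and Kcnd2 was 6.84 and 6.64 (-0.63 ± 0.20, adjusted p = 0.96). Kcnmb1 differed by -0.32 ± 0.08 (adjusted p = 0.759), with the inhibitor arrays under the negative control median. Kcnv2 was 0.30 log2 higher with no overlap (10.39 and 10.26 against 9.95 and 10.11), and it did not pass.

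ISOX DUAL against its injection control, PBS, gave no channel gene past the threshold with limma, nor any other gene (0 of 23255). No member had an unadjusted p under 0.05 (1.02% of all genes had), and differences ran from -0.44 to 0.18 log2 with a median of -0.036 (0.013 over all genes). Values did not overlap, lower with the inhibitor, for 18 members (11.5% of all genes) and, higher, for 8 (16.6%). Kcnc2 differed by -0.06 log2 (95% interval -0.38 to 0.26), Kcnmb1 by 0.04 (-0.15 to 0.24) and Kcnip3 by -0.01 (-0.44 to 0.42). For Kcnv2 the difference was -0.04 (-0.58 to 0.50) and for Kcne2 0.04 (-0.33 to 0.42). Kcnd2, at -0.25 (-0.72 to 0.21), and Kcnj3, at -0.18 (-0.48 to 0.13), were among those of smallest p. These intervals do not show that the inhibitor left the channels unchanged. The lens list, a tissue outside the retina, averaged 9.41 on the second ISOX DUAL array and 5.87 to 7.11 on the other 9, and its part in these values was not tested.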

How the data were processed

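The authors deposited a table of log2 values, with 1 value for each transcript cluster on each of the 10 arrays. How they corrected and normalized it, with which software and build, is not given in the sources used here. No further normalization was applied. Of 72688 rows, 6732 are controls. Of the other 65956 clusters, 30604 carry 1 gene symbol, and a gene was represented by its cluster of highest mean. Genes with at least 2 arrays above that array's 30th percentile were tested with lmFit and eBayes of limma 3.58.1 (R 4.3.3), fitted to all 10 arrays with 5 residual degrees of freedom. P-values were adjusted over the 23255 genes tested. The steps were tested on simulated data. Precision is limited by having 2 arrays per group, and differences had a median standard error of 0.134 log2.

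The members, roles, partner and marker lists were chosen with earlier results of these data known. Genes named by rule were up to 12 members of largest difference per direction among those past the threshold, or those of smallest p where fewer than 3 passed, the member of smallest p in each family and a fixed set of retinal channels. Other members were named to account for each role, after their values were seen. Alternatives were quantile normalization, other filters, other fits, leaving out each array, and the background block, which was added later. Whether replicate numbers pair arrays across groups is not given by the labels, so the reported values have no replicate block, and a fit with one is an alternative.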

Additional observations from a re-analysis of the deposited data

How the results depend on the processing

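Day 17 against day 7 had 24 members past the threshold. The count was 3 with only the 4 arrays compared, 11 with array weights and 37 with the background block, and 12 to 22 when 1 array was left out. In the other settings it was 22 to 27. Of all genes, 1.48% passed with only the 4 arrays compared, 4.78% with array weights and 23.1% with the background block. Kcnh8 alone fell in the reported fit, and 2 members fell with quantile normalization, 3 with the replicate block and 4 with the background block. All 24 kept their sign in every setting, and 8 kept their call in every setting other than the 4-array fit. With replicate numbers as a replicate block the count was 27, and the 24 were all among them. That the numbers pair arrays is not established, since the first-minus-second array differences correlated at 0.583 to 0.809 among the uninjected groups, at 0.399 between the injected groups and at -0.0567 to -0.406 between uninjected and injected groups. In OIR against untreated retina the count was 0 in every setting, replicate block included, except the background block, with 3 (1.58% of all genes). The 3 comparisons among OIR groups had 0 members past the threshold in all settings run. Levels near the negative control probes limit what can be said of low members, and 2 arrays per group limit all.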
